A study of Mus musculus and Homo sapiens with 9 samples.

Results

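MicroRNAs are short RNAs that lower the output of messenger RNAs, and the 10 genes described here encode the proteins that make them and put them to work. In the nucleus, the Microprocessor, formed by the RNase DROSHA and its RNA-binding partner DGCR8, cuts a hairpin out of a long primary transcript. Exportin-5 (XPO5) carries the hairpin to the cytoplasm, where the RNase DICER1 trims it to a duplex. One strand is then loaded into an Argonaute protein (AGO1, AGO2, AGO3 or AGO4), and the Argonaute recruits a GW182 protein (TNRC6A, TNRC6B or TNRC6C), which brings in the enzymes that shorten the poly(A) tail of the target. In T cells, DICER1 and DROSHA are known to be needed for normal development and function.

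The members were chosen by gene symbol: AGO1, AGO2, AGO3, AGO4, DICER1, DROSHA, DGCR8, XPO5, TNRC6A and TNRC6B, and the same symbols in mouse case. All 10 were found among the 64252 rows of the human count table and all 10 among the 43432 rows of the mouse table, and all passed the filter on low counts, which kept 15819 human and 15350 mouse genes. The human libraries came from J.gamma1, a Jurkat-derived T-ALL (T cell acute lymphoblastic leukemia) cell line, with 2 libraries of cells given a non-targeting hairpin (sh-NC) and 2 of cells given a hairpin against IRF2BP2 (sh-IRF2BP2), so that all 4 came from 1 line that expressed a short hairpin. The mouse libraries came from CD3+ T cells magnetically sorted from spleens of mice sacrificed at 6 weeks, 2 of them Vav-iCre+/-;Irf2bp2fl/fl (Irf2bp2 KO) and 3 controls, which the labels call wild type and the paper Vav-iCre-/-;Irf2bp2fl/fl; Vav-iCre acts in the whole blood lineage, not in T cells alone. Nothing in the labels says whether the human replicates were separate cultures, so their p-values measure the spread between these libraries, which may be technical. The comparisons ask how the RNA of these genes differed when IRF2BP2 was lowered or removed; mature miRNAs, too short for such libraries, and proteins were not measured.

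Total counts lay between 26648204 and 31120236 in the human libraries and between 16668577 and 37177523 in the mouse libraries, with control replicate 3 the shallowest. IRF2BP2 itself fell from 204 and 199 CPM (counts scaled by library size to a common total) in sh-NC cells to 79.0 and 93.8 CPM in sh-IRF2BP2 cells, a log2 fold change of -1.22 ± 0.13 (SE; adjusted p = 0.00229, edgeR). In the mouse, Irf2bp2 had 4145, 4594 and 1915 counts in the controls and 0 and 0 in the knockout libraries, at least 1469-fold lower with a limit of 3 counts per library. Of 18 T cell markers, 17 exceeded 1 CPM in every human library and all 18 did in every mouse library. Transcript length bears on long genes such as these. In J.gamma1 cells the median log2 fold change of all tested genes was 0.01, but it rose with transcript length, from -0.12 for the 4357 genes under 2 kb to 0.37 for the 304 genes of at least 12 kb. In the mouse it rose likewise from -0.14 to 0.29. Of the members, 6 human and 5 mouse genes have a longest transcript of at least 8 kb.

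In J.gamma1 cells, DICER1 and TNRC6A were about 2-fold higher and AGO4 was 1.61-fold lower after IRF2BP2 knockdown, whereas the Microprocessor genes and XPO5 differed little. With edgeR (quasi-likelihood test, p-values adjusted over all genes by Benjamini-Hochberg), 2 of the 10 members were higher at an adjusted p under 0.05, beside 5.83% of all tested genes, and 1 was lower, beside 5.32%. At an unadjusted p under 0.05 the number was 6 of 10, beside 27.6% of all genes. DESeq2, run as an alternative, called 4 members higher (8.1% of all genes) and 1 lower (7.46%), adding AGO1 (adjusted p = 0.0374) and TNRC6B (adjusted p = 0.0182). The libraries of the groups did not overlap for 6 members that were higher and 2 that were lower, beside 29.6% and 28.7% of all genes. The 6 include DROSHA, whose nearest libraries were almost equal, at 126.326 CPM (sh-NC replicate 1) and 126.355 CPM (sh-IRF2BP2 replicate 1). The median log2 fold change of the 10 members was 0.30, with a range from -0.68 to 1.06, and with the trend on transcript length taken out of each library it was 0.02.

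**Figure D1:**
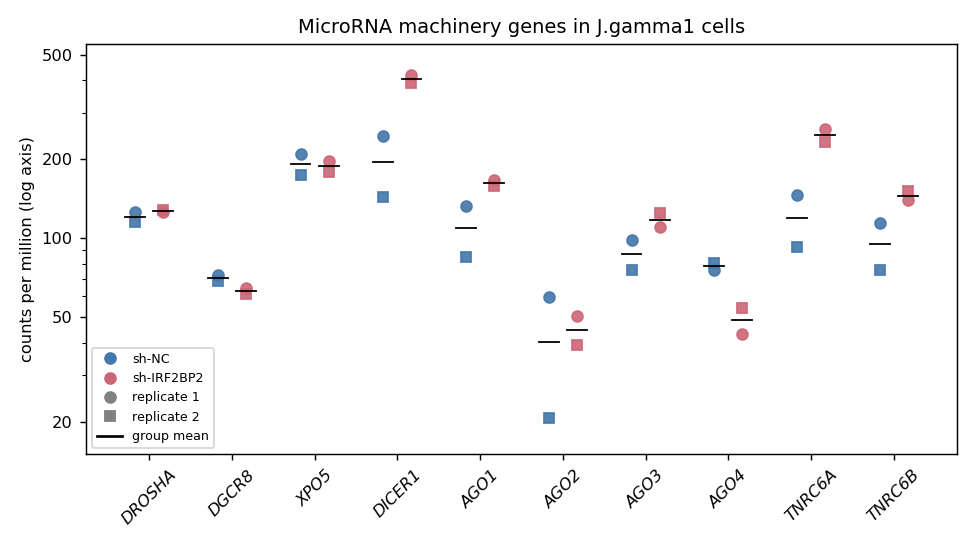
CPM (log axis) of the 10 members in each J.gamma1 library, with a horizontal bar at the mean of each group (n = 2). DICER1 and TNRC6A lie higher in both sh-IRF2BP2 libraries, AGO4 lies lower, and for AGO2 the 2 sh-NC libraries enclose the sh-IRF2BP2 libraries.

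The genes of the first nuclear step showed small differences. DROSHA (chr5:31400494-31532196, minus strand, hg38) was at 126 and 116 CPM in sh-NC cells and at 126 and 128 CPM in sh-IRF2BP2 cells. The 4 values lay within a narrow band, and the log2 fold change was 0.07 ± 0.12 (SE), with a 95% interval from -0.20 to 0.34. DGCR8 (chr22:20080221-20111877, plus strand) was at 72.6 and 68.6 CPM in sh-NC cells and at 64.4 and 61.1 CPM in sh-IRF2BP2 cells. Both knockdown libraries lay below both controls, but the difference did not pass the test (log2 fold change -0.17, 95% interval -0.43 to 0.10, adjusted p = 0.385 by edgeR). Of the annotated exon bases of DGCR8, 9.57% are shared with other annotated genes, in part on the opposite strand, and use of the strand in counting is not given in the sources used here.

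DGCR8 is itself known as a substrate of the Microprocessor, which cuts hairpins in its messenger RNA. In GENCODE 44, MIR1306 lies in exon 2 of the 14 exons of the DGCR8 transcript used here, inside the coding sequence, at chr22:20086058-20086142 (plus strand, hg38). Another annotated hairpin, MIR3618, shares 88 annotated exon bases with DGCR8 on the same strand and is not printed. The MIR1306 hairpin is shown because its bases are exon bases of DGCR8. Capitals mark the bases that equal the RefSeq sequence of mouse miR-1306-3p.

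MIR1306: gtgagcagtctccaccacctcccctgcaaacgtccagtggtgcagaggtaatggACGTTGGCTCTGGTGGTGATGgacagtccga

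Within each library, the ratio of DGCR8 to DROSHA counts was 0.574 and 0.593 in sh-NC cells and 0.510 and 0.477 in sh-IRF2BP2 cells. The groups did not overlap, and with 2 libraries against 2 an exact permutation test cannot give a two-sided p below 0.333, the value found here. DGCR8 was lower and DROSHA, by a narrow margin, higher in both knockdown libraries, so this ratio had to separate. Over the 5 ratios compared in J.gamma1 cells the Benjamini-Hochberg adjusted p was 0.417 for each of the 4 whose groups did not overlap, and AGO2 to AGO1 overlapped (exact permutation test, p = 1).

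XPO5 (chr6:43522334-43576038, minus strand), the export receptor of the hairpins, was at 209 and 174 CPM in sh-NC cells and at 197 and 178 CPM in sh-IRF2BP2 cells. The groups overlapped, and the log2 fold change was -0.03, with a 95% interval from -0.35 to 0.29. Of its exon bases, 4.10% are shared with POLR1C on the opposite strand.

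DICER1 (chr14:95086228-95158010, minus strand), which makes the mature duplex, was at 246 and 144 CPM in sh-NC cells and at 421 and 390 CPM in sh-IRF2BP2 cells. Both knockdown libraries exceeded both controls, and the controls differed from each other more than the knockdown libraries did. The log2 fold change was 1.06 ± 0.23 (SE), a 2.08-fold rise (95% interval of the log2 value 0.53 to 1.59, adjusted p = 0.0263 by edgeR). It stayed between 0.72 and 1.49 when any 1 library was left out, with adjusted p-values of at most 0.0368; the highest value was the one without sh-NC replicate 1. When every gene with at least 1 count in any library was tested, the value was 1.03 and the call was lost (adjusted p = 0.0939 by edgeR). With the length trend removed it was 0.84 (adjusted p = 0.0134 by edgeR). Relative to DROSHA in the same library, DICER1 counts stood at 1.94 and 1.25 in sh-NC cells and at 3.33 and 3.04 in sh-IRF2BP2 cells, without overlap (exact permutation test, two-sided p = 0.333, the smallest that 2 against 2 allows).

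TNRC6A (chr16:24610209-24827632, plus strand), a GW182 protein, showed a rise of similar size. It was at 147 and 92.8 CPM in sh-NC cells and at 261 and 233 CPM in sh-IRF2BP2 cells, again without overlap and again with sh-NC replicate 2 the lowest. The log2 fold change was 1.05 ± 0.21 (SE), a 2.07-fold rise (95% interval of the log2 value 0.57 to 1.52, adjusted p = 0.0194 by edgeR). It lay between 0.75 and 1.41 with any 1 library left out and at 0.87 with the length trend removed (adjusted p = 0.0101 by edgeR), and with the wider filter it was 1.02 and no longer called (adjusted p = 0.0747 by edgeR). Its paralog TNRC6B (chr22:40044817-40335808, plus strand) was at 114 and 75.7 CPM in sh-NC cells and at 140 and 151 CPM in sh-IRF2BP2 cells. The groups did not overlap, but the log2 fold change of 0.62 (95% interval 0.18 to 1.05) had an adjusted p of 0.0761 by edgeR, and it was 0.27 with the length trend removed. Without sh-NC replicate 1 it was 0.94 (adjusted p = 0.000206 by edgeR) and without sh-NC replicate 2 it was 0.35 (adjusted p = 0.113 by edgeR). The third GW182 gene, TNRC6C, which is no member but belongs to the list of other pathway genes below, was at 116 and 80.8 CPM in sh-NC cells and at 185 and 192 CPM in sh-IRF2BP2 cells (log2 fold change 0.94 ± 0.17, adjusted p = 0.0154 by edgeR). All 3 GW182 genes were thus higher in both knockdown libraries, beside 29.6% of all genes, and 2 were called higher, beside 5.83%. Each has a transcript of at least 8 kb. Of tested genes of that length, 72.7% had log2 fold changes above 0 and 12.9% were called higher. The ratio of TNRC6A to TNRC6B counts was 1.28 and 1.23 in sh-NC cells and 1.87 and 1.54 in sh-IRF2BP2 cells (exact permutation test, two-sided p = 0.333, the smallest possible here).

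Of the 4 Argonaute genes, AGO4 fell and the other 3 did not pass edgeR's test. AGO4, AGO1 and AGO3 lie one after the other on the plus strand of chromosome 1, AGO4 at chr1:35808016-35857890, AGO1 at chr1:35869808-35930532 and AGO3 at chr1:35930718-36072500, with 185 bases between the annotated ends of AGO1 and AGO3. AGO4 was at 75.7 and 80.5 CPM in sh-NC cells and at 43.1 and 54.2 CPM in sh-IRF2BP2 cells. Both knockdown libraries lay below both controls, which here agreed closely. The log2 fold change was -0.68 ± 0.14 (SE; 95% interval -1.01 to -0.36, adjusted p = 0.0228 by edgeR). The call rested on sh-IRF2BP2 replicate 1, the lower of the pair: without it the log2 fold change was -0.55 (adjusted p = 0.136 by edgeR). It was also lost with the wider filter (-0.71, adjusted p = 0.0650 by edgeR). With the length trend removed it was -0.85 (adjusted p = 0.0101 by edgeR).

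AGO1, its downstream neighbour, was at 133 and 84.8 CPM in sh-NC cells and at 167 and 158 CPM in sh-IRF2BP2 cells. The groups did not overlap, but the log2 fold change of 0.58 (95% interval 0.12 to 1.04) did not pass edgeR's test over all genes (adjusted p = 0.106). AGO3 was at 98.6 and 75.9 CPM in sh-NC cells and at 111 and 125 CPM in sh-IRF2BP2 cells. Its log2 fold change was 0.43 (95% interval 0.08 to 0.78, adjusted p = 0.111 by edgeR). With the length trend removed, the values of AGO1 and AGO3 were 0.30 and 0.06. Without sh-NC replicate 1, AGO1 was at 0.94 (adjusted p = 0.000196 by edgeR) and AGO3 at 0.63 (adjusted p = 0.00506 by edgeR). Without sh-NC replicate 2 they were at 0.29 and 0.25, with adjusted p-values by edgeR of 0.192 and 0.286.

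AGO2 (chr8:140520156-140635633, minus strand), the Argonaute known for cutting its targets, had the widest interval of the members. It was at 59.6 and 20.6 CPM in sh-NC cells and at 50.5 and 39.2 CPM in sh-IRF2BP2 cells. The sh-NC libraries lay on either side of both knockdown libraries, so the log2 fold change of 0.16 had a 95% interval from -0.77 to 1.10. Without sh-NC replicate 1 it was 1.12 (adjusted p = 0.000443 by edgeR), and without sh-NC replicate 2 it was -0.41 (adjusted p = 0.106 by edgeR). Of the members, AGO2 has the lowest level per kb of exon in sh-NC cells and one of the longest transcripts, 14595 bases.

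Because the ratio of 2 genes in 1 library does not depend on library scaling, AGO4 was set against AGO1. The ratio still carries the length trend, since the longest transcripts of AGO4 and AGO1 are 7272 and 13712 bases. AGO4 counts were 0.568 and 0.950 of AGO1 counts in sh-NC cells and 0.258 and 0.343 in sh-IRF2BP2 cells, a mean log2 difference of -1.31 without overlap (exact permutation test, two-sided p = 0.333, the smallest possible). AGO4 was lower and AGO1 higher in both knockdown libraries, so this ratio had to separate. Its p-value therefore adds nothing to the values of the single genes. Of the CPM per kb of exon summed over the 4 Argonaute genes, AGO4 held 36.3% and 49.8% in sh-NC cells and 22.2% and 27.1% in sh-IRF2BP2 cells, whereas AGO1 held 33.8% and 27.7% and then 45.6% and 41.8%. Per kb, AGO4 was thus the largest Argonaute share in both sh-NC libraries and AGO1 in both sh-IRF2BP2 libraries. By CPM not divided by length, AGO1 lay above AGO4 in both sh-NC libraries too (133 and 84.8 against 75.7 and 80.5 CPM). The shares were not corrected for the length trend, and edgeR did not call AGO1.

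**Figure D2:**
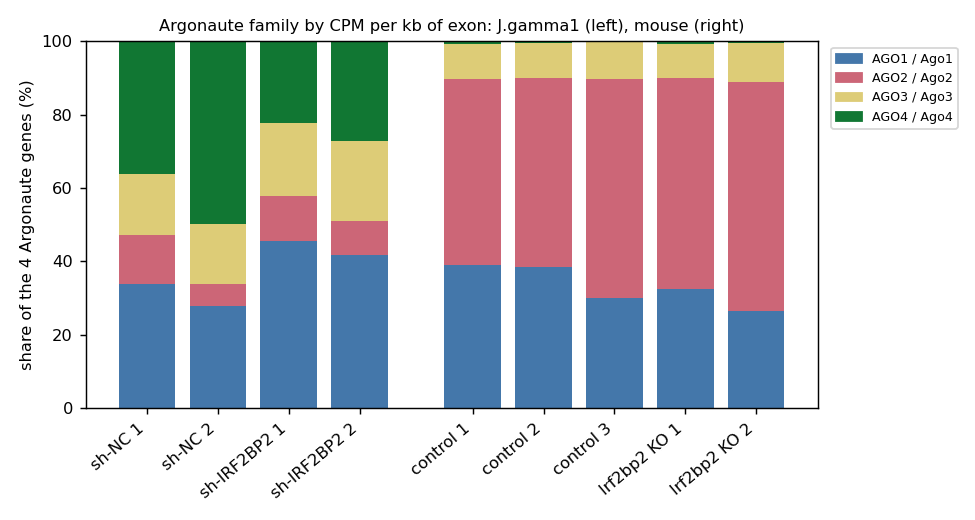
Share of each Argonaute gene in the CPM per kb of exon summed over the 4 genes, 1 bar per library, J.gamma1 on the left and mouse on the right. In J.gamma1 cells AGO4 takes 36.3% and 49.8% with sh-NC and 22.2% and 27.1% with sh-IRF2BP2; in the mouse libraries Ago2 takes over 50% of each bar and Ago4 under 1%.

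The promoters of the 3 called members are printed because DICER1 and TNRC6A rose together while AGO4 fell. Each is the 250 bases before the start of the MANE Select transcript in hg38, 5′ to 3′ on the gene's strand: DICER1 at chr14:95157530-95157779 (minus), TNRC6A at chr16:24729401-24729650 (plus) and AGO4 at chr1:35807766-35808015 (plus). Capitals mark matches, on either strand, to 5 motifs. The ETS motif searched was CCGGAAG. The SP/KLF motif was GGGCGGG. The CCAAT box was searched by the letters of its name. The RUNX motif was TGTGGT. The E2F motif was GGCGGGAA, which can share bases with an SP/KLF match.

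DICER1: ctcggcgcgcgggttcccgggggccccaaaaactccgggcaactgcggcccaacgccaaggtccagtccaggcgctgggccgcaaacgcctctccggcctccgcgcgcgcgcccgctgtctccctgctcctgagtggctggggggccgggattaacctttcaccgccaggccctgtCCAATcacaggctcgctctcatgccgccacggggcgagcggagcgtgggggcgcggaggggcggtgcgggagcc
TNRC6A: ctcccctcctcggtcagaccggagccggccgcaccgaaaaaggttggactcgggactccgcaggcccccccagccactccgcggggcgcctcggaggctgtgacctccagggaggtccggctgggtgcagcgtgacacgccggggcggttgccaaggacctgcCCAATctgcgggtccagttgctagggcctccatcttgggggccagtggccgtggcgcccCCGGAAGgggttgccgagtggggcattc
AGO4: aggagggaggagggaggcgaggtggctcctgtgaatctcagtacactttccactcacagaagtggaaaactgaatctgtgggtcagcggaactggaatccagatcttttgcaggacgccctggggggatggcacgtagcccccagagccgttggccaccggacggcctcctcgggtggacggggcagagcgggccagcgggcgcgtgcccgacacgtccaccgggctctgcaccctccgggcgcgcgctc

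All 3 windows are rich in G and C, at 74.0%, 71.6% and 66.4% beside a median of 66.0% over the promoters of 12761 tested coding genes. DICER1 and TNRC6A each hold 1 CCAAT box, which 34.8% of all these promoters hold, and TNRC6A also holds 1 ETS match, which 16.2% hold. Among members not called by edgeR, CCAAT boxes also lie in the windows of AGO1 and TNRC6B (1 each), DROSHA (3) and DGCR8 (4). The AGO3 and XPO5 windows hold none. Of genes called higher 31.6% hold this box, and of genes called lower 35.1%. The AGO4 window holds none of the 5 motifs. SP/KLF, RUNX and E2F matches, found in 55.9%, 7.44% and 4.82% of all promoters, are in none of the 3 windows.

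The values in sh-NC cells also gave an order of the members per length, in CPM per kb of exon (mean of 2 libraries). XPO5 was highest at 22.6 ± 2.9 (SD) and DROSHA next at 15.5 ± 0.98, and the libraries of these 2 genes did not overlap with each other or with those of the next gene. AGO4 (10.5), DGCR8 (9.63), TNRC6A (9.23), DICER1 (8.79) and AGO1 (7.76) followed. AGO4 and DGCR8 did not overlap. Among these 5, the libraries of TNRC6A, DICER1 and AGO1 overlapped with each other and with those of the 2 genes above, except that AGO1 lay below AGO4. TNRC6B (4.75), AGO3 (4.13) and AGO2 (2.53) were lowest, and the libraries of neighbours overlapped here too. Divided by the longest coding transcript instead, DICER1, whose annotated exons add up to 22151 bases against 10483 in that transcript, moved from place 6 to place 3 and AGO4 from place 3 to place 6.

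The length trend touched the members as follows. Over all 1251 tested genes of at least 8 kb, the median log2 fold change was 0.25, with 12.9% called higher and 2.56% called lower. The trend lay mostly in 1 control library: the median deviation of these genes from their mean over libraries was 0.03 and -0.28 on the log2 scale in sh-NC replicates 1 and 2, and 0.11 and 0.14 in the sh-IRF2BP2 replicates. AGO1, AGO2, AGO3, DICER1, TNRC6A and TNRC6B are all of at least 8 kb, and all 6 were lowest in sh-NC replicate 2. The shorter DROSHA and XPO5, of 5416 and 5323 bases, were lowest there too. The share of all genes lowest in that library was not counted. DICER1 and TNRC6A exceeded the upper quartile of genes of 8 to 12 kb (0.49), and AGO4, of 7272 bases, lay below the lower quartile of genes of 6 to 8 kb (-0.14). What sets the trend was not tested.

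**Figure D3:**
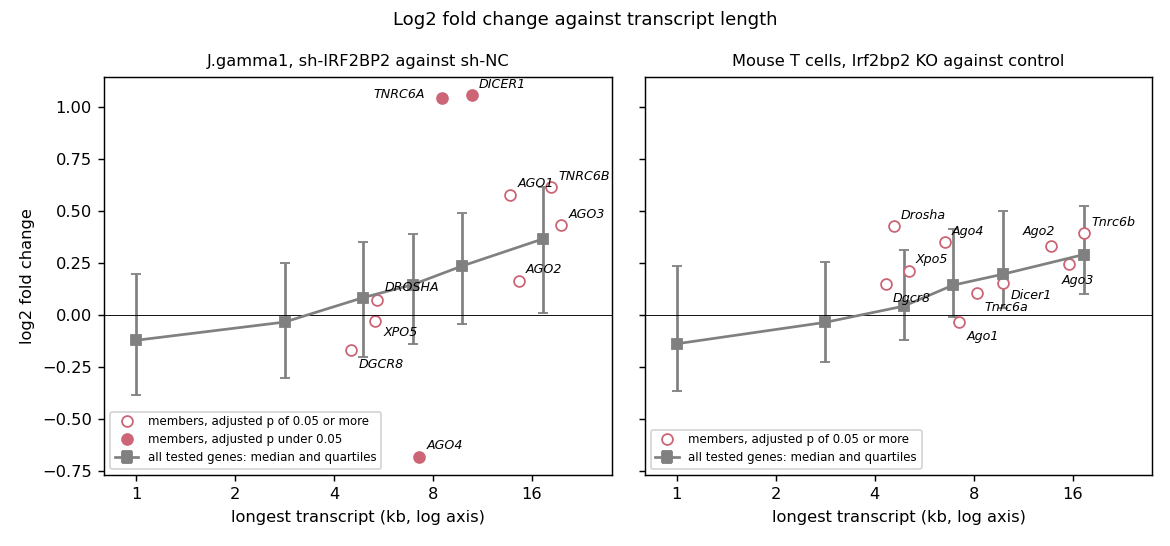
Log2 fold change (vertical axis) against the longest transcript in kb (log axis) for J.gamma1 (left) and mouse T cells (right). Grey squares and bars give the median and quartiles of all tested genes in 6 length classes, and circles the 10 members, filled where edgeR's adjusted p was under 0.05; DICER1 and TNRC6A lie above and AGO4 below the quartiles of genes of like length, and no mouse member is filled.

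The word GGTCTA in the 3′ UTR was also counted, since an earlier look at these counts had linked it with lower RNA in the knockdown. Of 1105 tested genes with GGTCTAA or AGGTCTA in the 3′ UTR of their chosen transcript, 19.4% were called lower, against 9.24% of 920 genes with GGTCTA in another setting and 4.72% of 10538 genes without it. These shares come from the same counts in which the word was found and are no independent check of it. Among the members, only AGO1 (3 sites) and TNRC6B (2 sites) hold the word. Neither was called by edgeR, and DESeq2 called both higher, as given above. The called members DICER1, TNRC6A and AGO4 hold none. The sites are shown with 12 bases on each side and the word in capitals, at chr1:35920815-35920844, chr1:35921562-35921591 and chr1:35927909-35927938 for AGO1 and at chr22:40323670-40323699 and chr22:40332451-40332480 for TNRC6B (plus strand, hg38).

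AGO1 site 1: aaaaaactcttaGGTCTAaaatgagaaaaa
AGO1 site 2: tggaggaagaagGGTCTAaatcctggcctg
AGO1 site 3: gtagaaactgatGGTCTAggagaagagatt
TNRC6B site 1: tttccgtccttaGGTCTAccatgtttggga
TNRC6B site 2: ctgcattgctctGGTCTAggcattatttgc

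AGO1 holds the extended word at sites 1 and 2 and TNRC6B at site 1. Both genes had log2 fold changes above 0 in the knockdown.

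Around the members, 65 other genes of the pathway were followed, of which 63 were tested in J.gamma1 cells. By edgeR, 2 of these were called higher and 5 lower, beside 5.83% and 5.32% of all genes, and 56 did not pass the test. DESeq2 called 2 higher and 10 lower, beside 8.1% and 7.46%. The median log2 fold change was 0.013 beside 0.0067 over all genes. Both Argonaute loading genes that passed were lower: HSP90AB1, a chaperone that opens Argonaute for the duplex, was at 2915 and 2456 CPM in sh-NC cells and at 1873 and 1565 CPM in sh-IRF2BP2 cells (log2 fold change -0.64 ± 0.17, adjusted p = 0.0462 by edgeR). FKBP4, a co-chaperone of HSP90, was at 338 and 308 CPM and then at 240 and 205 CPM (log2 fold change -0.54 ± 0.13, adjusted p = 0.0419 by edgeR); it is the smallest of the 5 falls and was added to the named genes after its value was seen. The 8 loading genes had a median log2 fold change of -0.28, with 7 of the values below 0. An unadjusted p under 0.05 by edgeR, in either direction, was found for 5 of the 8. With the length trend removed the median was -0.26. Their median longest transcript was 2708.5 bases, and of all tested genes of 2 to 4 kb 46.6% had log2 fold changes above 0. By qPCR the paper also reports lower HSP90AB1, among target genes of MYC and E2F.

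In the export and dicing step, RAN, the GTPase that drives exportin-5, and TENT2, which adds bases to the 3′ ends of some RNAs, were lower. RAN was at 849 and 860 CPM in sh-NC cells and at 587 and 529 CPM in sh-IRF2BP2 cells (log2 fold change -0.62 ± 0.13, adjusted p = 0.0252 by edgeR). TENT2 was at 45.9 and 48.4 CPM and then at 28.2 and 30.2 CPM (log2 fold change -0.69 ± 0.13, adjusted p = 0.0144 by edgeR). The groups were apart for both genes.

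Of 32 genes of the silencing step, TNRC6C was called higher, as given above, and FMR1, an RNA-binding protein found with Argonaute, lower. Of all tested genes, 5.83% were called higher and 5.32% lower. FMR1 was at 93.1 and 78.9 CPM in sh-NC cells and at 56.6 and 60.1 CPM in sh-IRF2BP2 cells (log2 fold change -0.56 ± 0.13, adjusted p = 0.0320 by edgeR). Of the 5 genes of miRNA turnover, ZSWIM8, which sends Argonaute to destruction on certain targets, was at 32.2 and 36.5 CPM and then at 48.9 and 58.3 CPM (log2 fold change 0.64 ± 0.14, adjusted p = 0.0291 by edgeR). None of the 11 nuclear processing genes passed edgeR's test (2 had an unadjusted p under 0.05, and DESeq2 called 1 of them). All 5 lower calls were lost without sh-IRF2BP2 replicate 1, and 4 of them and ZSWIM8 without replicate 2. Other genes moved in these cells too. Of 18 T cell markers 5 were called higher and 2 lower, beside 5.83% and 5.32% of all genes (summed level 3321 to 3539 CPM in sh-NC cells, 3887 to 3980 CPM in sh-IRF2BP2 cells). Of 22 S phase and G2/M genes 0 were called higher and 3 lower, beside the same shares (8244 to 8270 CPM against 6634 to 6949 CPM). Their part in the values of the members was not tested here.

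**Figure D4:**
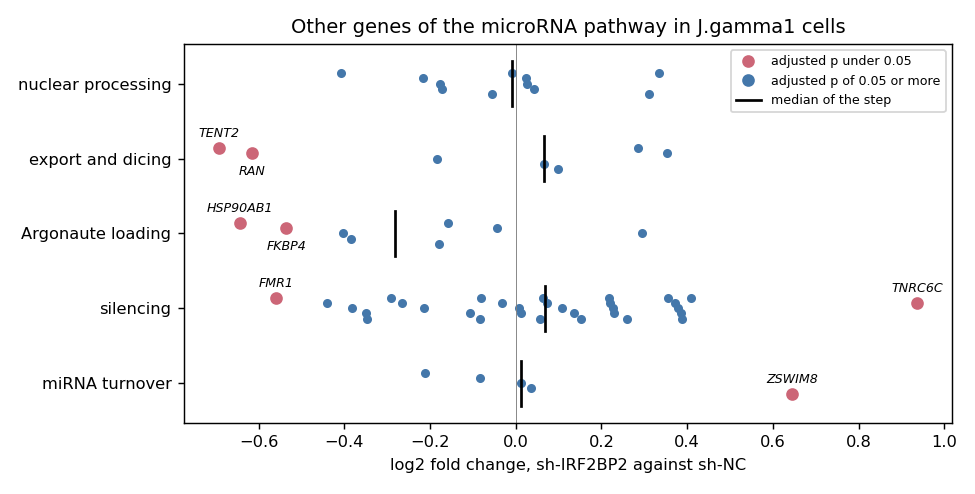
Log2 fold changes of the 63 tested pathway genes in J.gamma1 cells by step, with the median of each step as a vertical bar. The 7 genes past the test are named, 5 of them below 0, with the loading step at a median of -0.28.

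Genes that host miRNA hairpins were followed as well. Their values are gene-level counts of the host RNA, and the hairpins themselves were not measured. Of 13 tested in J.gamma1 cells, edgeR called 1 higher and 0 lower, beside 5.83% and 5.32% of all genes, and 4 had an unadjusted p under 0.05. DESeq2 called 1 higher and 1 lower, the latter MCM7 (log2 fold change -0.37, adjusted p = 0.0419; -0.36 and adjusted p = 0.125 by edgeR), named after its value was seen. The one called by both tools was MIR181A1HG (chr1:198777861-198937471, minus strand), the host of MIR181A1 and MIR181B1, whose miRNAs are known to act in T cell development. It had 10 and 1 counts in sh-NC cells and 82 and 61 counts in sh-IRF2BP2 cells. The groups were apart, but the counts were low, and the log2 fold change of 3.59 ± 0.76 (adjusted p = 0.0246 by edgeR) ranged from 2.65 to 6.07 when 1 library was left out, highest without sh-NC replicate 1. The mature sequences below are those of the mouse in RefSeq (GRCm38.p6), each found letter for letter in the hg38 hairpin, with the seed (bases 2 to 8) in capitals. The first 2 belong to this host and share a seed. The next 3 lie in Mcm7, of which the first 2 share a seed.

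miR-181a-5p: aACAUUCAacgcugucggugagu
miR-181b-5p: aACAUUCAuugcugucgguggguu
miR-106b-5p: uAAAGUGCugacagugcagau
miR-93-5p: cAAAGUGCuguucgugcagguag
miR-25-3p: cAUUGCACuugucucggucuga

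In mouse splenic T cells, no member passed the test in either direction with edgeR or DESeq2, beside 2.68% of all tested genes called higher and 0.15% called lower by edgeR and 7.97% called in either direction by DESeq2. At an unadjusted p under 0.05 there was 1 member, Drosha, beside 16.2% of all genes. Of the 10 members, 9 had log2 fold changes above 0, with a median of 0.23 beside -0.02 over all genes, and with the length trend removed the median was 0.10.

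Drosha was at 48.2, 44.3 and 55.1 CPM in the controls and at 64.9 and 67.2 CPM in the knockout. It was the single member whose groups did not overlap, beside 18.2% of all genes not overlapping in the same direction. Its log2 fold change was 0.43 ± 0.14 (SE; 95% interval 0.10 to 0.75, adjusted p = 0.197 by edgeR). Dgcr8, its partner, was at 68.2, 59.2 and 79.1 CPM and then at 73.0 and 79.6 CPM. The groups overlapped, and the log2 fold change was 0.15 (95% interval -0.22 to 0.52). The ratio of Dgcr8 to Drosha counts was 1.42, 1.34 and 1.44 in the controls and 1.13 and 1.18 in the knockout, without overlap (exact permutation test, two-sided p = 0.200, the smallest that 3 against 2 allows; adjusted over 5 ratios, 0.5). Of the exon bases of Dgcr8, 17.1% are shared with other annotated genes.

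Xpo5 was at 58.0, 46.6 and 73.8 CPM in the controls and at 70.2 and 67.5 CPM in the knockout. Dicer1 was at 153, 114 and 164 CPM and then at 170 and 149 CPM. Both genes overlapped between the groups, with log2 fold changes of 0.21 (95% interval -0.26 to 0.69) and 0.15 (95% interval -0.28 to 0.59).

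Ago2 had the highest level per kb among the Argonaute genes of these cells. It was at 247, 216 and 495 CPM in the controls and at 377 and 426 CPM in the knockout. Control replicate 3 exceeded both knockout libraries and the other 2 controls lay below them. The log2 fold change was 0.33 (95% interval -0.51 to 1.17, adjusted p = 0.718 by edgeR), and without control replicate 3 it was 0.79 (adjusted p = 0.0420 by edgeR). Ago3 (54.0, 46.9 and 98.9 CPM against 72.6 and 84.5 CPM) and Tnrc6b (275, 221 and 436 CPM against 424 and 391 CPM) had the same arrangement, with log2 fold changes of 0.24 and 0.39 and adjusted p-values by edgeR of 0.777 and 0.564. Without control replicate 3 these were 0.63 and 0.71, with adjusted p-values by edgeR of 0.0825 and 0.0647. Without control replicate 2 they were 0.067 and 0.22. Control replicate 3 was also the control in which long transcripts stood highest: over the 671 genes of at least 8 kb, the median deviation was -0.10, -0.40 and 0.22 in the controls and 0.18 and 0.12 in the knockout libraries.

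Ago1 (110, 93.1 and 145 CPM against 122 and 104 CPM) and Tnrc6a (289, 202 and 335 CPM against 313 and 279 CPM) showed no separation of the groups. Their 95% intervals ran from -0.52 to 0.45 and from -0.42 to 0.63 on the log2 scale. The ratio of Tnrc6a to Tnrc6b counts was 1.05, 0.913 and 0.768 in the controls and 0.739 and 0.713 in the knockout, lower in the knockout, where the human ratio was higher in the knockdown (mouse exact permutation test, two-sided p = 0.200, adjusted 0.5). The difference between the species was not tested. Ago4 had 70, 43 and 16 counts in the controls and 77 and 53 in the knockout, so that its log2 fold change of 0.35 had a 95% interval from -0.69 to 1.39 and a change of the size seen for AGO4 in J.gamma1 cells (-0.68) lay just inside it.

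**Figure D5:**
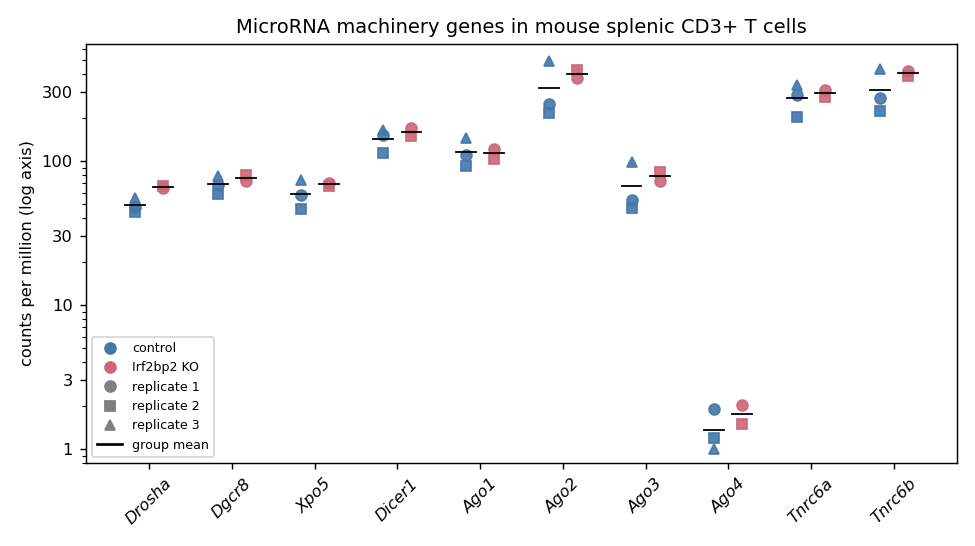
CPM (log axis) of the 10 members in each mouse library, with a horizontal bar at the mean of each group (3 controls, 2 Irf2bp2 KO). Drosha alone shows no overlap between the groups, control replicate 3 is the highest control for 9 of the members, and Ago4 lies near 1 CPM.

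Per kb of exon, Ago2 (22.8 ± 10.9 CPM per kb, SD, n = 3) and Tnrc6a (21.7 ± 5.3) were highest in the control T cells and overlapped, followed by Ago1 (14.3), Tnrc6b (13.1), Dgcr8 (8.95), Xpo5 (8.67), Dicer1 (8.56) and Drosha (8.28), of which neighbours overlapped throughout. Ago3 (4.02) came next, below all of these in every library, and Ago4 (0.196) was far below. Ago2 held 50.7%, 51.6% and 59.6% of the Argonaute sum in the controls and 57.6% and 62.6% in the knockout, and Ago4 at most 0.8% in any library. In J.gamma1 cells, by contrast, AGO2 held between 6.0% and 13.4% of the sum and AGO4 at least 22.2%; the tables differ in species, cell and annotation, so these shares are given side by side without a test.

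Of 62 tested mouse genes of the pathway list, none was called by edgeR or by DESeq2 and none had an unadjusted p under 0.05, and the median log2 fold change was 0.00 beside -0.02 over all genes. Of 9 miRNA host transcripts, edgeR called 1 higher and 0 lower, beside 2.68% and 0.15% of all genes, and 3 had an unadjusted p under 0.05. DESeq2 called 2 higher and 1 lower, adding Dleu2 (log2 fold change 0.81, adjusted p = 0.0172) and Evl (log2 fold change -0.52, adjusted p = 0.000309). Evl was also called by edgeR with the length trend removed (-0.48, adjusted p = 0.0480). Both were named after their values were seen. The one called by both tools was Mcm7 (chr5:138164583-138172422, minus strand, mm10), a DNA replication gene whose intron carries miR-106b, miR-93 and miR-25. It was at 93.1, 108 and 78.6 CPM in the controls and at 171 and 188 CPM in the knockout, without overlap (log2 fold change 0.95 ± 0.16, adjusted p = 0.0346 by edgeR). With single libraries left out, the value lay between 0.83 and 1.08 and the adjusted p reached 0.292. Genes of other cells and states moved between these groups: of 22 S phase and G2/M genes, to which replication genes such as Mcm7 are related, 11 were called higher (summed level 799 to 1126 CPM in the controls, 2316 to 2581 CPM in the knockout), and of 13 erythroid markers 7 were (685 to 2344 CPM against 4878 to 6738 CPM). Of 8 plasma cell markers 2 were called higher (1751 to 2935 CPM against 5057 to 7047 CPM), while no marker of T cells (18), B cells (7), myeloid cells (9) or NK cells (6) was called by edgeR, although 8, 0, 0 and 3 of them had an unadjusted p under 0.05 and DESeq2 called 4, 0, 0 and 1. The summed level of the T cell markers was 8220 to 9813 CPM in the controls and 6745 to 7060 CPM in the knockout, without overlap, with 16 of 18 log2 fold changes below 0 and a median of -0.41. No marker on these lists was at 0 in every library. Their part in the values of the members was not tested, and in bulk samples fewer cells of a type and less RNA per cell cannot be told apart.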

How the data were processed

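RNA-seq libraries of J.gamma1 cells (2 sh-NC, 2 sh-IRF2BP2) and of mouse splenic CD3+ T cells (3 control, 2 Irf2bp2 KO) were analysed, grouped by their labels. The authors deposited counts, whole numbers per Ensembl gene and library with no normalization, made with HISAT2 2.2.0 and StringTie on hg38 and mm10; how coverage became counts, and whether strand was used, is not given in the sources used here. A library with fewer counts gives wider error, which bears most on mouse Ago4 and MIR181A1HG.

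Rows with an identifier in GENCODE 44 (human, 98.0% of counts) or M21 (mouse, 99.8%) were filtered with filterByExpr, scaled by TMM and tested, per species and with condition as the sole term, with edgeR 4.0.16 (glmQLFit, glmQLFTest; R 4.3.3). A call is a Benjamini-Hochberg adjusted p under 0.05 over all genes. CPM use TMM-scaled library sizes. CPM per kb divide by the union of annotated exons. Ratios were compared with exact permutation tests (SciPy 1.17.1). No ratio was corrected for the trend on transcript length. Replicates differed beyond sampling noise (chi-square per gene at least 18.2), so each library counted once. The scripts were tested on simulated counts.

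The members and the lists (pathway, hosts, markers) were chosen with earlier results of these data known. Named were all members, the targeted gene, and of the other lists the pathway genes with the 4 largest rises and 4 largest falls among those called and every called host. The fits were repeated with DESeq2 1.42.0, with upper-quartile or RLE scaling, with other count filters, with counts divided by 2, with all rows, with a fold threshold, with a block on replicate number, with libraries left out in turn, and with the longest coding transcript as length. Removal of each library's trend on transcript length (lowess) was added after the data were seen.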

Additional observations from a re-analysis of the deposited data

How the results depend on the processing

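In J.gamma1 cells the count of 2 higher and 1 lower members became 4 higher with DESeq2, and 0 higher and 0 lower when every gene with at least 1 count in any library entered, where DICER1 (1.03), TNRC6A (1.02) and AGO4 (-0.71) kept their direction but not their calls. With single libraries left out it ran from 2 to 6 higher (6 without sh-NC replicate 1) and from 0 to 1 lower (0 without sh-IRF2BP2 replicate 1). The pathway list, with 5 lower and 2 higher, gave 10 lower with DESeq2, 8 lower with upper-quartile scaling, 2 lower and 0 higher with the wider filter, and 9 lower and 1 higher with the length trend removed; with single libraries left out it ran from 0 (without sh-IRF2BP2 replicate 1) to 9 (without sh-NC replicate 2) lower and from 1 to 10 (without sh-NC replicate 1) higher. With the replicate number as a block, 5 members were higher and 12 pathway genes lower and 6 higher. The human deviations of same-numbered libraries from their group means correlated at 0.26. With 2 libraries per group these deviations mirror each other, so both pairs give the same value by construction. The pairs share only a number. In the mouse the block leaves control replicate 3 without a partner. Signs turned for uncalled values only: with the length trend removed, AGO2 (-0.076), DROSHA (-0.014), Ago3 (-0.021), Dicer1 (-0.079) and Tnrc6a (-0.070); for Ago1 with 10 counts required in every library (0.011) and under the block (0.15); and with single libraries left out, where AGO2 ran from -0.41 to 1.12, XPO5 from -0.16 to 0.10, Ago1 from -0.18 to 0.15 and Tnrc6a from -0.055 to 0.27. In the mouse, the count of higher members ran from 0 to 1 (Ago2, without control replicate 3). A left-out library that leaves 1 sample in a group is tested on the spread of the other group. The causes of these differences were not tested.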
